A study of Populus ussuriensis with 20 samples.

Results

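In cuttings of Populus ussuriensis (Ussuri poplar), 44 genes had higher transcript levels at low phosphate at nearly every time in the first 24 h after transfer. They were selected on these same data, by a rule with 3 conditions, from 34699 genes in the table. A gene had to reach 1 FPKM (a level per unit of gene length and of assigned library fragments) in at least 2 libraries, which 24934 genes did. Both libraries at 10 µM had to lie above both libraries at 200 µM at 4 or more of the 5 times, a state called separated here. The difference of mean log2(FPKM + 1), 10 µM minus 200 µM, averaged over the 5 times, also had to be at least 0.25. Of 131 genes separated at 4 or more times (0.525% of the 24934), 44 met the last condition.

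Cuttings taken from young plants spent 5 days on solid Woody Plant Medium, long enough for root primordia to form, and then went into a modified liquid version of it. The liquid medium held either 10 µM KH2PO4 (low phosphate) or 200 µM KH2PO4, and the stem base with its primordia was sampled after 2, 4, 8, 12 and 24 h. Each of the 10 combinations had 2 libraries, 20 in all, and all groups shared the plant material, the rooting period and the transfer. The labels do not say whether the libraries of a group came from separate cuttings or plants. The p-values below therefore rest only on differences between these libraries, whose spread within a group may be technical. There was no group sampled before transfer. Library totals, recovered from the steps between FPKM values, ran from 14053677 to 15764764 fragments, with a median of 253 fragments for each tested gene and library.

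Plants take up phosphorus as inorganic phosphate. In Arabidopsis, a shortage is known to raise transcripts for phosphate transporters, secreted phosphatases and enzymes that replace membrane phospholipids, through PHR transcription factors held in check by SPX proteins. Phosphate supply is also known to alter root growth and branching. The genes of these data carry identifiers only, with no names or descriptions. No member is therefore assigned a role, and neither the phosphate pathway nor the tissue label was checked against marker genes. The stem base holds several cell types, and a difference in bulk RNA cannot tell fewer cells of a type from less RNA per cell.

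Because the rule used the difference between phosphate levels, the differences of the members are a description and carry no test. Their mean differences ran from 0.25 to 1.02 on the log2 scale, with a median of 0.50, beside a median of 0.00 over all tested genes. In 22 of the 44 the mean difference was 0.5 or more. On this scale a difference of 1 is a doubling for a gene well above 1 FPKM, and low genes are compressed. The members just inside the threshold were Potri.002G069400 and Potri.013G048900, both at 0.25, and the nearest genes outside it had mean differences of 0.25 and 0.24 after rounding. A further 86 genes with a mean difference of at least 0.25 were separated at 3 times and so were not members.

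Separation was not spread evenly over the times. At 2 h, 36 of the 44 were separated, where 9.89% of all tested genes were. The counts were 40 at 4 h (16.5% of all tested genes), 40 at 8 h (14.4%), 40 at 12 h (18.8%) and 25 at 24 h (22.0%). The rule fixes most of these counts, since every member may miss at most 1 time. Where a member missed a time, that time was 24 h in 19 of 39 cases. Median differences of the 44 were 0.39, 0.57, 0.58, 0.48 and 0.29 in order of time. In 27 members the difference was positive at all 5 times, and in 13 it was negative at 24 h. Both 200 µM libraries lay above both 10 µM libraries for 3 members at 24 h and 1 at 8 h. The share of all tested genes in that state was not counted, so nothing more is read from these counts.

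**Figure D1:**
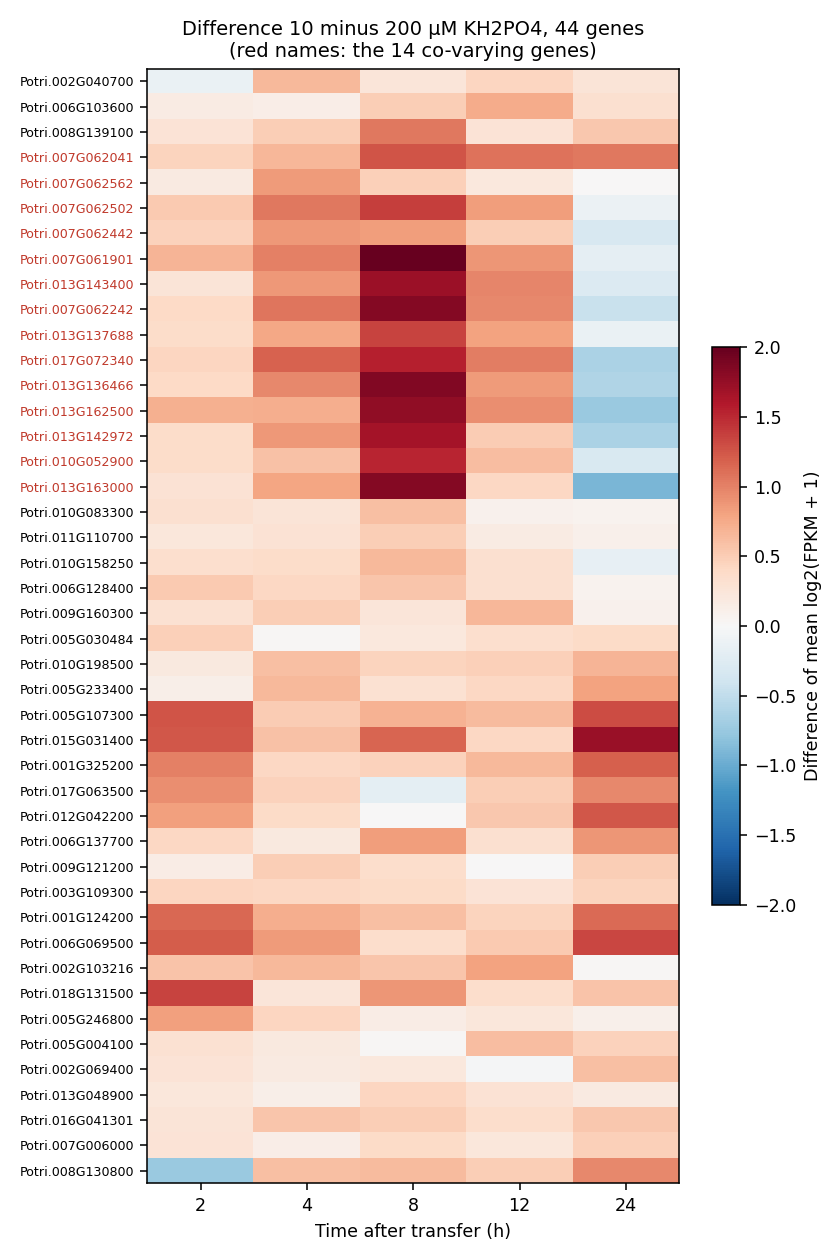
Difference of mean log2(FPKM + 1), 10 minus 200 µM, for each of the 44 genes (rows) at 2, 4, 8, 12 and 24 h (columns), with red for higher at 10 µM. The 14 genes with red names, which vary together over the libraries, have a median difference of 1.61 at 8 h and of -0.31 at 24 h, and the other 30 have medians of 0.45 and 0.52.

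The rule asks for a comparison with exchanged labels. With 2 libraries for each level, the 4 libraries of a time can be labelled in 6 ways, and all 7776 combinations over the 5 times were enumerated. The labels as deposited gave 44 genes, the median over all labellings was 12 genes and the range was 0 to 572. In 646 labellings 44 or more genes met the rule, which gives an exact one-sided permutation p of 0.0831. Exchanging the levels at every time, which finds genes lower at 10 µM, gave 68 genes, a number reached or passed in 308 labellings. The number 44 thus did not pass 0.05 by this comparison, which treats the libraries of a time as exchangeable and says nothing about any single gene.

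**Figure D2:**
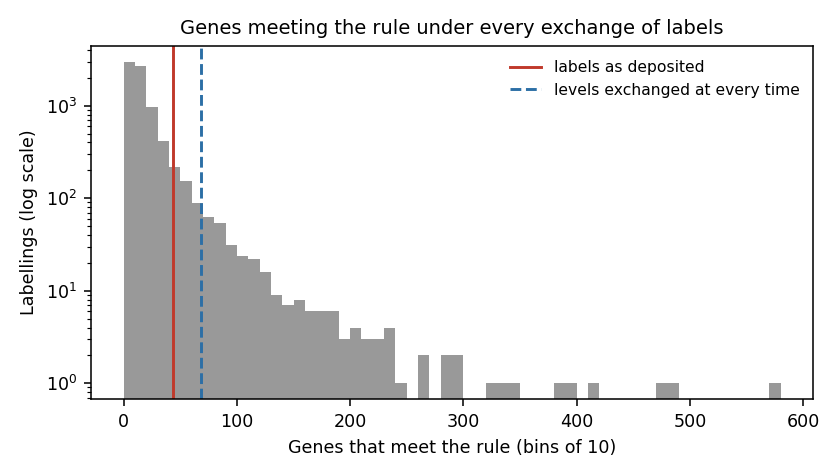
Number of genes that met the rule (horizontal axis, bins of 10) against the number of labellings (vertical axis, log scale) for all 7776 exchanges of phosphate labels within times. The solid line marks the deposited labels at 44 genes and the dashed line the full exchange of levels at 68 genes.

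Separation at all 5 times was met by 9 of the 24934 tested genes, and 5 of these were members. The rest had a mean difference under 0.25. Potri.015G031400 had the largest mean difference of the 44. Its FPKM at 10 µM were 5.04 and 8.02 at 2 h, 6.72 and 5.91 at 4 h, 8.34 and 7.05 at 8 h, 6.95 and 7.96 at 12 h, and 22.1 and 19.3 at 24 h. At 200 µM they were 1.01 and 3.89 at 2 h, 4.35 and 3.45 at 4 h, 3.74 and 2.16 at 8 h, 4.40 and 6.38 at 12 h, and 5.41 and 5.73 at 24 h. The groups did not overlap at any time, and they came closest at 12 h, where 6.95 stood beside 6.38. The gap was widest at 24 h, where both low-phosphate libraries were above every other library of the series for this gene. The log2 differences were 1.24, 0.58, 1.16, 0.42 and 1.72 in order of time, with a mean of 1.02 ± 0.14 (SE from limma). Fragments behind these values numbered between 21 and 477 per library.

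Potri.005G107300 showed a wide gap at 2 h and again at 24 h. Its 10 µM libraries held 6.26 and 7.92 FPKM at 2 h, 7.67 and 5.99 at 4 h, 7.04 and 5.34 at 8 h, 5.65 and 4.33 at 12 h, and 12.97 and 9.52 at 24 h. The 200 µM libraries held 2.15 and 2.57 FPKM at 2 h, 4.81 and 4.18 at 4 h, 3.52 and 3.30 at 8 h, 3.38 and 2.37 at 12 h, and 4.02 and 3.78 at 24 h. The lowest 10 µM value of the whole course, 4.33 at 12 h, was under the 200 µM value of 4.81 at 4 h, but no overlap occurred within a time. Its log2 differences were 1.26 and 1.31 at the first and last time and between 0.51 and 0.69 at the rest.

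Potri.001G124200 kept a nearly level course at 200 µM and dipped at 10 µM. At 10 µM it had 4.30 and 6.12 FPKM at 2 h, 3.93 and 4.31 at 4 h, 3.62 and 3.03 at 8 h, 2.55 and 2.80 at 12 h, and 4.66 and 5.47 at 24 h. At 200 µM it had 2.10 and 1.48 FPKM at 2 h, 2.21 and 1.97 at 4 h, 1.53 and 2.19 at 8 h, 1.57 and 1.83 at 12 h, and 1.98 and 1.54 at 24 h. Every low-phosphate library, at any time, was above every 200 µM library, the nearest pair being 2.55 and 2.21. The log2 differences were 1.15 and 1.14 at the first and last time and 0.45 at 12 h.

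Potri.006G069500 also had its largest differences at the ends of the course, 1.21 at 2 h and 1.34 at 24 h on the log2 scale. Its FPKM at 10 µM were 5.12 and 8.52 at 2 h, 4.92 and 5.85 at 4 h, 5.27 and 3.82 at 8 h, 4.44 and 2.73 at 12 h, and 5.58 and 5.84 at 24 h. Those at 200 µM were 2.38 and 2.24 at 2 h, 1.88 and 3.29 at 4 h, 3.55 and 3.05 at 8 h, 2.11 and 2.15 at 12 h, and 1.46 and 1.86 at 24 h. The groups stayed apart at each time, most narrowly at 8 h, where 3.82 stood beside 3.55.

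Potri.001G325200 was the most abundant of the 5. The 10 µM libraries had 11.2 and 14.9 FPKM at 2 h, 9.84 and 9.72 at 4 h, 10.5 and 11.1 at 8 h, 12.1 and 14.6 at 12 h, and 17.3 and 20.5 at 24 h. The 200 µM libraries had 5.30 and 6.58 FPKM at 2 h, 7.28 and 6.91 at 4 h, 9.49 and 6.02 at 8 h, 7.45 and 8.79 at 12 h, and 6.85 and 8.46 at 24 h. All 10 low-phosphate values exceeded all 10 values at 200 µM, with 9.72 and 9.49 the nearest. The log2 difference was smallest at 4 h, 0.41, and largest at 24 h, 1.20.

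**Figure D3:**
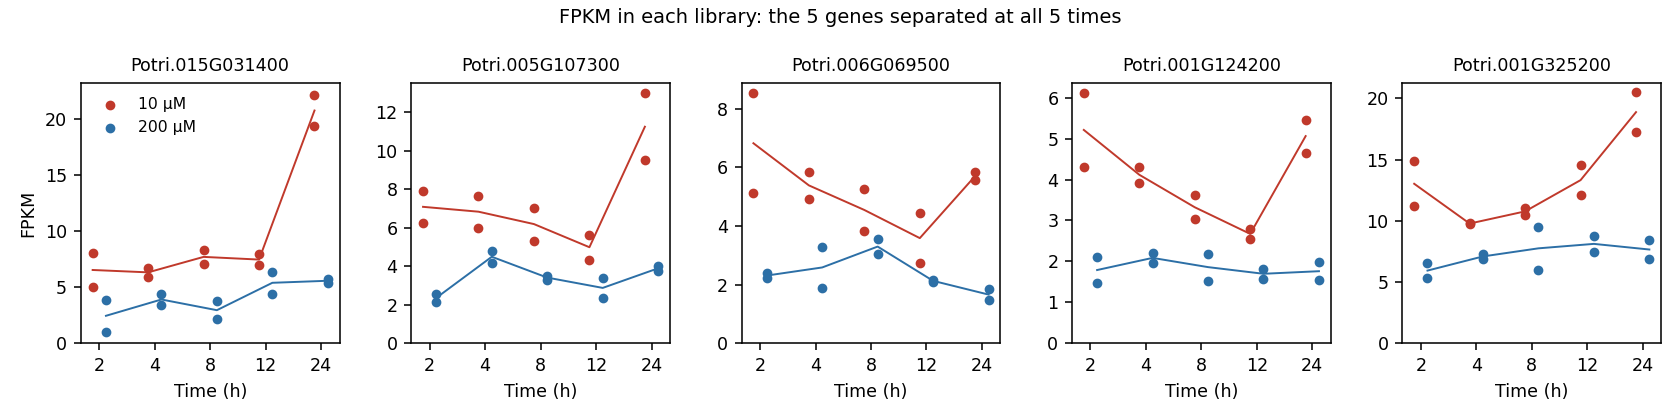
FPKM in each library (points) and the mean of the 2 libraries (lines) at 10 µM (red) and 200 µM (blue) for the 5 members separated at all 5 times. In each panel both red points lie above both blue points at every time, and the red line is higher at 24 h than at 12 h, as in the libraries of Potri.015G031400 with 22.1 and 19.3 against 6.95 and 7.96.

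In limma's fit over all 24934 genes, 7 genes (0.0281%) were called higher at 10 µM in the mean of the 5 differences after Benjamini-Hochberg adjustment, and all 7 are members. The contrast is that of the rule, so the count is given only to place the members. The adjusted p in limma was 0.000746 for Potri.005G107300, whose mean difference was 0.88 ± 0.09 (SE). It was 0.0161 for Potri.015G031400. The other 3 members separated at all 5 times were also among the 7. Their mean differences were 0.81 for Potri.001G124200, 0.86 for Potri.006G069500 and 0.75 for Potri.001G325200. The remaining 2 of the 7, named after their values were seen, were Potri.017G063500 with 0.53 and Potri.005G233400 with 0.46. The call of Potri.015G031400 was lost without the 8 h libraries, where limma's adjusted p was 0.0871. It was also lost when any of 6 single libraries was left out, namely replicate 2 at 2 h, replicate 1 at 4 h, both at 12 h and replicate 1 at 24 h at 10 µM, and replicate 1 at 12 h at 200 µM, with limma's adjusted p between 0.0541 and 0.0624. The call of Potri.005G233400 was lost when any of 8 single libraries was left out, namely replicate 2 at 2 and 4 h, both at 12 h and replicate 1 at 24 h at 10 µM, and replicate 1 at 4 h and both at 12 h at 200 µM (adjusted p in limma 0.0514 to 0.0696).

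Single times at which a member broke the pattern could be large. Potri.008G130800, chosen after its values were seen, had a log2 difference of -0.74 at 2 h and between 0.49 and 0.96 at the other times. Its 2 h libraries held 4.79 and 2.45 FPKM at 10 µM and 4.36 and 9.34 at 200 µM, resting on 11 to 44 fragments. At 4 h its FPKM were 7.78 and 6.59 against 4.87 and 3.91, and at 24 h 9.67 and 6.20 against 4.19 and 2.89. The 2 h groups overlapped and the 9.34 library stood above the others of that time. Potri.017G063500 was turned round at 8 h, with 9.63 and 8.42 FPKM at 10 µM and 10.7 and 10.3 at 200 µM. At 24 h the same gene had 16.4 and 19.1 against 7.48 and 9.90. Its difference thus went from 0.92 at 2 h to -0.20 at 8 h and 0.96 at 24 h. Whether a difference varied with time was tested in limma by an F test, which called 0 of the 44 members and 0 of all tested genes (0%) after adjustment. At an unadjusted p under 0.05 it gave 14 members and 751 of all genes (3.01%), the smallest member p in limma being 0.000477, for Potri.017G063500. The test used the differences on which the members were chosen and is a description.

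The members fell into a set of 14 that varied together and 30 that did not join it. Average linkage on the Pearson correlation of log2(FPKM + 1) over the 20 libraries placed the same number, 14, in the largest cluster at a distance limit of 0.3 and at limits of 0.2 and 0.4. The clustering was chosen after the data were seen, so nothing about this set is tested. Mean pairwise r was 0.882 among the 14 and 0.396 among the 30, and 0.00963 among all tested genes. After each group mean was subtracted, only the spread within pairs of libraries remained. Mean pairwise r was then still 0.752 among the 14, and it was 0.0408 among the 30 and 0.0045 among all tested genes. The libraries are shared by all genes, and these correlations are descriptions.

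The 14 were higher at 10 µM from 2 h to 12 h and mostly not at 24 h. Their median log2 difference went from 0.41 at 2 h through 0.86 at 4 h to 1.61 at 8 h, and then through 0.84 at 12 h to -0.31 at 24 h. At 24 h, 12 of the 14 were negative and 1 was separated, whereas 13 were separated at 2 h and 14 at each of 4, 8 and 12 h. In 12 of them the largest difference was at 8 h, and in the remaining 2 it was at 4 h. The other 30 had medians of 0.32, 0.42, 0.45, 0.38 and 0.52 in order of time, and 14 of them had their largest difference at 24 h.

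Potri.007G062041 had the largest mean difference of the 14, 0.90, and was the member of the 14 separated at 24 h. At 10 µM its FPKM were 25.1 and 38.3 at 2 h, 37.2 and 23.5 at 4 h, 26.9 and 74.1 at 8 h, 18.2 and 20.6 at 12 h, and 13.8 and 17.3 at 24 h. At 200 µM they were 17.9 and 28.4 at 2 h, 21.9 and 15.3 at 4 h, 16.8 and 19.4 at 8 h, 10.2 and 7.20 at 12 h, and 7.80 and 6.09 at 24 h. The 2 h groups overlapped, and 1 library at 8 h and 10 µM was far above all others. Both levels were lower at 12 and 24 h than at 2 h.

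Potri.007G062242 was among the most abundant members, with a mean of 47.6 FPKM over the 20 libraries. Its 10 µM libraries had 82.2 and 76.1 FPKM at 2 h, 82.3 and 49.0 at 4 h, 62.8 and 160.3 at 8 h, 29.9 and 36.1 at 12 h, and 11.7 and 24.6 at 24 h. Its 200 µM libraries had 63.6 and 55.6 FPKM at 2 h, 47.3 and 18.5 at 4 h, 13.7 and 53.8 at 8 h, 19.4 and 13.9 at 12 h, and 33.9 and 16.3 at 24 h. Replicates differed strongly at 4 and 8 h at both levels, and at 24 h the groups overlapped with the highest value at 200 µM. The log2 difference was 1.84 at 8 h and -0.45 at 24 h, and its mean difference of 0.76 became 0.50 without the 8 h libraries.

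Potri.013G137688 was the most abundant member, with a mean of 53.6 FPKM. It had 81.0 and 83.2 FPKM at 2 h, 83.8 and 49.5 at 4 h, 63.8 and 148 at 8 h, 52.7 and 47.3 at 12 h, and 25.4 and 32.5 at 24 h at 10 µM. It had 69.2 and 57.7 FPKM at 2 h, 48.6 and 28.5 at 4 h, 26.0 and 54.1 at 8 h, 32.3 and 24.6 at 12 h, and 37.5 and 26.7 at 24 h at 200 µM. As for Potri.007G062242, replicate 1 was the higher at 4 h and replicate 2 at 8 h at both levels, and the groups overlapped at 24 h.

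Potri.013G142972 had 18.1 and 18.8 FPKM at 2 h, 19.1 and 12.1 at 4 h, 14.7 and 31.3 at 8 h, 7.98 and 7.12 at 12 h, and 1.44 and 6.29 at 24 h at 10 µM. The values at 200 µM were 15.4 and 12.9 at 2 h, 10.2 and 6.06 at 4 h, 2.70 and 12.5 at 8 h, 5.59 and 4.45 at 12 h, and 9.05 and 3.23 at 24 h. Its lowest library was 1 of the low-phosphate libraries at 24 h, with 7 fragments. The difference at 24 h was -0.63 on the log2 scale, with overlapping groups. Its mean difference of 0.56 became 0.37 without replicate 1 at 8 h and 200 µM and 0.28 without the 8 h libraries.

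Summed over the 14 genes, FPKM at 10 µM were 476 and 467 at 2 h, 498 and 323 at 4 h, 382 and 854 at 8 h, 232 and 257 at 12 h, and 101 and 177 at 24 h. At 200 µM the sums were 351 and 328 at 2 h, 270.2 and 165 at 4 h, 125 and 298 at 8 h, 144 and 119 at 12 h, and 211 and 128 at 24 h. The sum was higher in both low-phosphate libraries at every time except 24 h, where 200 µM held both the highest value and the second-lowest. Replicate 2 at 8 h and 10 µM stood apart with 854. Measured from the mean of the 8 h libraries at 200 µM, the median log2 difference of the 14 genes was 2.14 in that library and 1.08 in replicate 1. Without that library the median mean difference of the 14 went from 0.69 to 0.57, without replicate 1 at 8 h and 200 µM, the lower of its pair, to 0.53, and without all 8 h libraries to 0.43, with single genes from 0.15 to 0.81. The summed FPKM of the other 30 genes lay between 232 and 304 at 10 µM and between 166 and 198 at 200 µM, without overlap at any time. The rule favours such gaps in both sums, since every member was chosen for separation at 4 or more times.

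**Figure D4:**
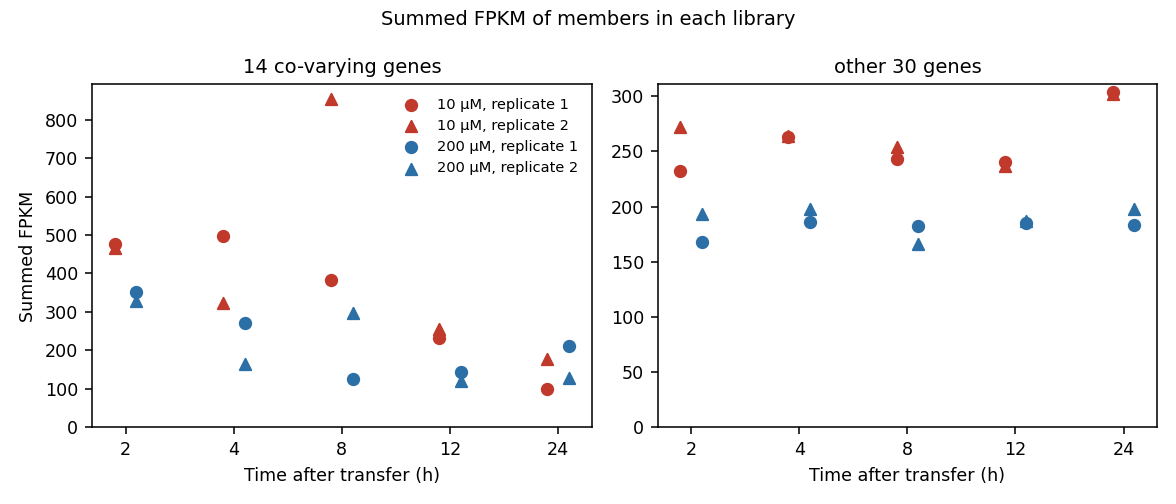
Summed FPKM per library (vertical axis) by time in h for the 14 co-varying genes (left) and the other 30 (right), with circles for replicate 1, triangles for replicate 2, red for 10 µM and blue for 200 µM. On the left the 10 µM sums at 12 and 24 h lie below those of earlier times, 1 library at 8 h reaches 854, and the levels overlap at 24 h. On the right the 10 µM sums lie between 232 and 304, all above the 200 µM sums, a gap that the rule favours.

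The 14 genes had further features in common. The rule did not use identifiers or lengths, but it did act on FPKM level and on the spread between libraries. Of their identifiers, 6 began with Potri.007G061 or Potri.007G062 and 6 with Potri.013G, a start found in 1 of the other 30. Among all 24934 tested genes, 41 identifiers began with Potri.007G061 or Potri.007G062 and 1006 (4.03%) with Potri.013G. Identifiers are compared here only as labels, and their positions were not looked up. Gene lengths, recovered from the FPKM steps, had a median of 388.5 bases among the 14 (114 to 7786), 1358.5 among the other 30 and 1807 among all tested genes. The 14 had a median of 15.8 FPKM and the 30 a median of 4.85, beside 8.73 over all tested genes. The residual SD in limma had a median of 0.46 for the 14, 0.21 for the 30 and 0.16 for all tested genes. How the authors assigned reads shared by near-identical genes is not given in the sources used here, and its part in the shared pattern was not tested.

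Genes outside the 44 had a like pattern. An r of 0.9 or more with the mean of the 14 over the 20 libraries was found for 54 genes, 11 of them among the 14 and 43 not members. All 43 had a mean difference of at least 0.25, with a median of 0.64, and missed the rule through separation: 24 were separated at 3 times, 14 at 2 and 5 at 1. The mean of the 14 already holds their phosphate difference. A positive difference in genes chosen for likeness to it follows largely from that choice and is a description. The nearest were Potri.007G061861, with r = 0.981 and a mean difference of 0.57, and Potri.013G140850, with r = 0.978 and a mean difference of 0.61. Of the 43, 14 had identifiers beginning with Potri.007G061 or Potri.007G062 (41 among all tested genes) and 22 with Potri.013G (1006 among all tested genes).

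Among the other 30 members, the next-largest cluster held 5 genes, and 10 genes joined no other. The 5 were Potri.015G031400, Potri.005G107300, Potri.001G325200, Potri.017G063500 and Potri.012G042200, named because they cluster. They included 4 of the 7 genes called in the mean difference. Many of the 30 were low in abundance. Over all 44, 18 had a mean under 5 FPKM (40.9%, beside 33.6% of all tested genes), 8 had fewer than 10 fragments in at least 1 library, the lowest count being 0, and 11 had at least 100 in every library.

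The change with time, averaged over both phosphate levels, was not a condition of the rule and was tested. The rule does act on the spread between libraries of a group, which these tests also use. The shares of members below are therefore not fully independent of how the members were chosen. In limma's F test, 20 of the 44 members (45.5%) varied over the 5 times after adjustment over all tested genes, beside 14.6% of all tested genes. From 2 h to 24 h, 15 members (34.1%) fell, beside 4.24% of all tested genes, and 5 (11.4%) rose, beside 8.05%. The median change of the 44 was -0.07 on the log2 scale and that of all tested genes 0.05. The members that fell were mostly of 1 kind: 13 of the 15 were among the 14 co-varying genes, whose changes ran from -1.72 to -0.82 with a median of -1.33. Since these 14 vary together within groups as well, their calls are not separate observations. The remaining 2, named after their values were seen, were Potri.006G103600, which fell by 1.01, and Potri.008G139100, which fell by 0.82. At 2 h Potri.006G103600 had 9.27 and 20.8 FPKM at 10 µM and 6.91 and 21.4 at 200 µM. Its change was -0.73 without replicate 2 at 2 h and 10 µM, and -0.63 without replicate 2 at 2 h and 200 µM. The one of the 14 that missed the threshold was Potri.013G143400, with a change of -1.14 and an adjusted p in limma of 0.0577. All 5 that rose were among the other 30. Leaving out a single library lowered these counts in some cases and raised them in others, over all tested genes as well. Cases that lowered them are given here. Without replicate 1 at 24 h and 10 µM, 8 members varied with time and 8 fell, and over all tested genes the calls went from 3632 to 2406 and from 1057 to 467. Without replicate 2 at 24 h and 200 µM, 9 members varied and 6 fell, beside 2406 and 445 of all tested genes. Without replicate 2 at 12 h and 200 µM, 12 members varied, beside 2069 of all tested genes.

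Potri.007G062242 fell by 1.72 ± 0.42 (SE) on the log2 scale from 2 h to 24 h, with an adjusted p in limma of 0.0177. At 10 µM it went from 82.2 and 76.1 to 11.7 and 24.6 FPKM, and at 200 µM from 63.6 and 55.6 to 33.9 and 16.3. Both 24 h libraries were below both 2 h libraries at each level. Potri.013G142972 fell by 1.71 ± 0.42 (SE), with an adjusted p in limma of 0.0171, and its 24 h libraries were below its 2 h libraries at each level too. Both calls were lost in limma without replicate 1 at 24 h and 10 µM (adjusted p = 0.0818 and 0.0825) and without replicate 2 at 24 h and 200 µM (0.0862 and 0.0866). Potri.007G062041 fell by 1.27 ± 0.27 (SE), with an adjusted p in limma of 0.00785.

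Among the members that rose, Potri.015G031400 had the largest change, 1.31 ± 0.23 (SE) on the log2 scale, with an adjusted p in limma of 0.00257. The change was larger at 10 µM, from 5.04 and 8.02 to 22.1 and 19.3 FPKM, than at 200 µM, from 1.01 and 3.89 to 5.41 and 5.73, in FPKM units. Its phosphate difference was not called as varying with time. Potri.002G069400, just inside the threshold of the rule, rose by 0.79 ± 0.08 (SE), the next-largest change, with an adjusted p in limma of 7.5e-05.

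Potri.002G069400 had 5.38 and 4.98 FPKM at 2 h, 5.81 and 5.20 at 4 h, 7.07 and 7.36 at 8 h, 8.70 and 9.53 at 12 h, and 10.2 and 11.8 at 24 h at 10 µM. At 200 µM it had 4.40 and 3.83 FPKM at 2 h, 4.89 and 4.60 at 4 h, 6.49 and 5.67 at 8 h, 9.68 and 8.94 at 12 h, and 6.37 and 7.43 at 24 h. Levels climbed at both phosphate levels until 12 h, where the groups overlapped, and at 24 h the 200 µM libraries were lower than at 12 h and the 10 µM libraries higher. Its log2 difference was 0.61 at 24 h and 0.28 or less at every other time. The other 3 that rose, named after their values were seen, were Potri.017G063500 by 0.60, Potri.005G107300 by 0.57 and Potri.005G233400 by 0.50. The call of Potri.005G107300 was lost in limma without replicate 1 at 2 h and 10 µM (adjusted p = 0.0521) and without replicate 1 at 24 h and 10 µM (0.074).

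Potri.013G048900, the other member at the threshold, had a narrow gap at most times. Its FPKM at 10 µM were 3.67 and 4.50 at 2 h, 4.85 and 4.64 at 4 h, 4.02 and 8.45 at 8 h, 6.79 and 7.01 at 12 h, and 5.09 and 5.02 at 24 h. At 200 µM they were 3.15 and 3.52 at 2 h, 4.20 and 4.34 at 4 h, 4.59 and 3.69 at 8 h, 5.57 and 5.36 at 12 h, and 4.26 and 4.41 at 24 h. The 8 h groups overlapped, although the largest difference of this gene, 0.43, was at that time and came with the single value of 8.45. Without that library its mean difference was 0.16, under the threshold of the rule. Its change from 2 h to 24 h was 0.28 ± 0.15 (SE) and did not pass the threshold (adjusted p = 0.241 in limma).

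**Figure D5:**
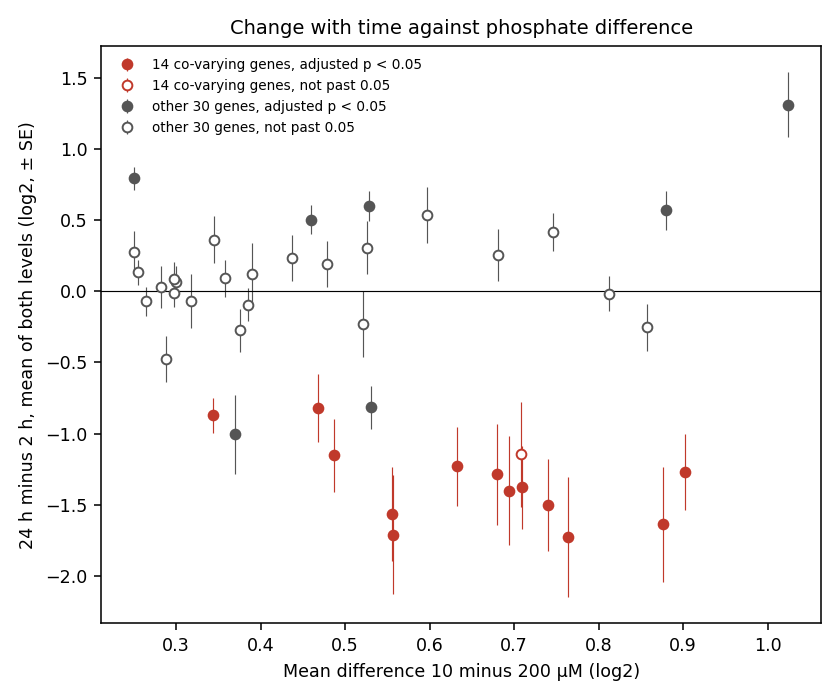
Change from 2 h to 24 h averaged over both levels (vertical axis, log2, ± SE from limma) against the mean difference 10 minus 200 µM (horizontal axis, log2) for the 44 genes, with filled points for an adjusted p under 0.05. The 14 co-varying genes (red) lie between -1.72 and -0.82 and the other 30 (grey) between -1.01 and 1.31.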

How the data were processed

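RNA sequencing of 20 libraries (5 times, 2 phosphate levels, 2 libraries each) was analysed from the FPKM values that the authors deposited for 34699 genes. HISAT2 2.1.0 and Bowtie2 2.2.3 appear, without roles, in the submitters' processing notes. For the reference genome, annotation, counting program and handling of shared reads, the sources used here give nothing. The table held 0 further value columns. Groups were taken from the labels.

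The members, the rule and all lists were chosen with earlier results of these data known. Genes of at least 1 FPKM in at least 2 libraries were kept. FPKM steps were solved for gene lengths and library totals. Whole fragments came out for 24934 kept genes (100%), none farther than 0.0128 from a whole number. Tested on data with known answers, it solved 99.99% of 27692 genes holding 10 or more fragments, and 20 totals.

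Values were log2(FPKM + 1), without further scaling, and fold changes on this scale understate the change of low genes. A single fit of limma 3.58.1 (R 4.3.3) covered 20 libraries, with 10 group means and a variance trend (median 14.1 degrees of freedom). Tests were two-sided with Benjamini-Hochberg adjustment over all 24934 genes and a threshold of 0.05. The fit was also run on simulated data with 200 genes changed by known folds, and its recovery is not reported here. Noise in those data was drawn separately for each gene, so they hold no genes that vary together as the 14 do. Label exchanges and clustering used Python 3.11.15, numpy 2.4.6 and scipy 1.17.1.

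Without descriptions, the planned lists of phosphate, hormone, meristem and cell type marker genes could not be matched and were void. The naming rule was the 2 members with the largest mean difference, the 2 with the highest FPKM, the 2 with the largest rise and the 2 with the largest fall among those past the threshold. It added the 2 just inside 0.25 and the members separated at all 5 times. Others are marked where named. Alternatives were a pseudocount of 0.1, other filters and thresholds, quantile normalization, voom on fragments, replicate blocks, each library left out, and the 8 h libraries left out.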

Additional observations from a re-analysis of the deposited data

How the results depend on the processing

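The number of genes meeting the rule was 26 with a mean FPKM of at least 5, 5 with separation at all 5 times, 22 with a mean difference of at least 0.5, 131 with no minimum difference, and 84 without the 8 h libraries (at least 3 of the 4 times), 39 of these among the 44. Leaving out 1 library makes the rule easier and gave 45 to 83 genes, with 67 or more only where a library at 2 h, or replicate 2 at 4 h and 10 µM, was left out. The same leave-one-out fits called 5 to 12 members in the mean difference (12 without replicate 1 at 8 h and 10 µM), 8 to 25 as varying with time (2069 to 5190 of all tested genes), 4 to 6 as higher and 6 to 16 as lower at 24 h (963 to 2264 and 445 to 1276 of all), and 0 in the variation of the difference, where 31 of all tested genes were called without replicate 1 at 8 h and 10 µM and 0 in the other such fits. Same-numbered libraries deviated together at 2 h (r = 0.504) but with r under 0.1 at each later time (0.0746, -0.238, 0.0738 and -0.0104), and nothing in the labels pairs them, so the numbers were not taken as pairs. With the replicate block the 5 counts were 7, 19, 5, 15 and 0, beside 7, 3481, 1914, 1019 and 0 of all tested genes. The 7 lost Potri.005G233400 (adjusted p = 0.112 in limma) and gained Potri.013G137688 (0.0492). Voom on fragments gave 8, 17, 5, 15 and 0, beside 8, 3771, 2073, 1042 and 0 of all tested genes. For single named genes, 291 values under the alternatives moved by less than the residual SD in limma, 3 moved upward and 0 reversed. Even so, 4 shifts, given beside those genes, exceeded 1.5 times. Filters and the replicate block cannot change a mean difference, and leaving out 1 library changes only 1 of the 5 averaged differences. These counts were thus largely fixed in advance and do not show stability. Depth limits the 8 members with fewer than 10 fragments in a library, and 2 libraries a group limit every comparison. The cause of these shifts was not tested.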
